A study of Rattus norvegicus with 28 samples.

Results

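Left ventricles of hypertensive transgenic rats that had received a stimulator of soluble guanylate cyclase were set against left ventricles of rats without the transgenes, to describe what stayed different from SD under the drug. The 12 arrays of treated dTGR and the 8 arrays of SD were taken by their labels, 20 of the 28 arrays of the series, and these 2 groups alone were fitted. Treated dTGR were male rats of the strain labelled dTGR [SD-Tg(hAGT)L1623xTg(hREN)L10J], which carries the human angiotensinogen and renin genes, with the phenotype label HFpEF (hypertension induced), where HFpEF is heart failure with preserved ejection fraction, and they received BAY 41-8543 at 3 mg/kg/day. The remaining 8 arrays, vehicle dTGR, came from males of the same strain and phenotype label given a mixture of Transcutol, Cremophor-EL and water, and they are used only for values beside named genes. SD were male wild type Sprague Dawley rats labelled as having had no treatment. Assignment was at 3.5 weeks of age, gavage once a day began at 4 weeks, and hearts were taken at 7 weeks, per the labels. A duration of 4 weeks stands in the design text, in conflict with these ages, and is not used below. Treated dTGR differ from SD by both transgenes, by the drug, by the gavage and by any other difference between the 2 rat lines, and these cannot be told apart in this comparison. The promoters that drive the transgenes and the litters of the rats are not given in the sources used here, so p-values measure the spread between these samples.

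Soluble guanylate cyclase is the receptor of nitric oxide and makes cyclic GMP, which relaxes vessels, and a stimulator such as BAY 41-8543 makes the enzyme respond to lower levels of nitric oxide. Human renin cuts human angiotensinogen, so rats with both transgenes form excess angiotensin peptide and become hypertensive. A heart under pressure load is known to switch on natriuretic peptides and other genes of the fetal ventricle, to lay down collagen-rich matrix and to use less fatty acid.

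Each gene is given by the log2 intensity of its brightest probe, and each difference is the mean of treated dTGR minus the mean of SD in log2 units, with the standard error of the limma fit and a p adjusted over all 11496 genes tested. A gene was called where the adjusted p was under 0.05. Of the genes tested, 2443 (21.3%) were called, 1351 (11.8%) higher and 1092 (9.50%) lower in treated dTGR than in SD. Every count of list members below is to be read beside these shares, and counts near them say little about a list. At least a 1.5-fold difference was seen for 410 of the genes called higher (3.57% of those tested) and for 229 of the genes called lower (1.99%). The arrays of both groups did not overlap for 345 genes (3.00%). The median difference over all genes was 0.01, and median intensities lay between 99.5 and 107 on all 20 arrays. Along the first principal component, with 20.2% of the variance, treated dTGR lay between 5.70 and 21.3 and SD between -26.0 and -16.3, without overlap. In these bulk samples, fewer cells of a type and less RNA per cell cannot be told apart.

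The genes with the highest differences were secreted lectins, natriuretic and stretch genes, class II and guanylate-binding immune genes, and matrix genes. Reg3b, a secreted lectin known from injured tissue, had lowest, median and highest log2 intensities of 8.13, 10.01 and 12.13 in treated dTGR and of 5.23, 6.03 and 6.33 in SD. All 12 treated arrays lay above all SD arrays, and the difference was 4.23 ± 0.31 (limma, adjusted p = 2.86e-10). The SD average of 5.84 was near 5.65, the mean level under which probes were left out. Of the 8 SD arrays, 5 lay above that level, so the size of the difference is uncertain. In vehicle dTGR the same lectin averaged 11.96, higher than in treated dTGR, but the vehicle arrays ran from 9.49 to 15.02. Its relative Reg3g differed by 3.56 ± 0.50 (adjusted p = 6.27e-06), with overlap, and was among the genes with the widest spread between treated arrays, which ran from 7.68 to 12.63. Probes of related genes may read each other's RNA, which was not checked here and applies to the lectins, haemoglobins, histocompatibility, guanylate-binding, Oas and protocadherin genes below.

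Several further genes of very different function separated the groups completely. Scn3b, an auxiliary subunit of voltage-gated sodium channels, had 9.44, 10.66 and 11.34 in treated dTGR as lowest, median and highest, and 7.12, 7.62 and 8.36 in SD. The difference was 2.87 ± 0.21 (limma, adjusted p = 2.86e-10). Dusp15, a dual specificity phosphatase, differed by 2.68 ± 0.25 (adjusted p = 1.34e-08), and Tceal7, a small nuclear protein of the TCEAL family, by 2.45 ± 0.24 (adjusted p = 3.4e-08). Slc1a3, a glutamate transporter, had one of the widest gaps, between a lowest treated value of 9.51 and a highest SD value of 8.51, and its difference was 2.08 ± 0.16 (adjusted p = 9.41e-10). Every array of both groups kept to its own side for these genes.

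**Figure D1:**
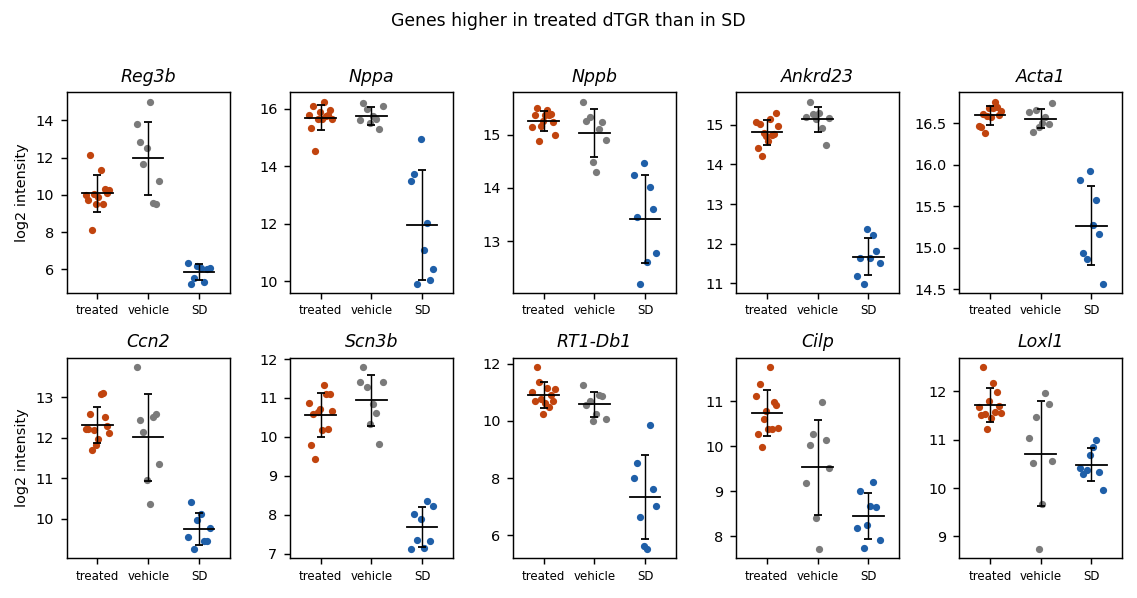
Log2 intensity of 10 genes called higher in treated dTGR than in SD, with 1 point per array (12 treated dTGR, 8 vehicle dTGR, 8 SD), a line at the mean and bars of 1 standard deviation. Treated and SD arrays do not overlap in any panel but that of Nppa, where the highest SD array lies at 14.95 and the lowest treated array at 14.55.

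Genes of the fetal ventricular program and of stretched muscle were higher, with a few members lower. Of 22 measured members of this list, 10 were called higher and 4 lower, against 11.8% and 9.50% of all genes, with a median difference of 0.25. Nppa, the atrial natriuretic peptide, had 14.55, 15.77 and 16.26 in treated dTGR as lowest, median and highest, and 9.92, 11.55 and 14.95 in SD. The SD arrays were widely spread, and the highest of them passed the lowest treated array. The difference was 3.74 ± 0.47 (limma, adjusted p = 9.95e-07), and vehicle dTGR averaged 15.76 beside 15.70 in treated dTGR. Nppb, the B-type natriuretic peptide, had 14.87, 15.30 and 15.49 in treated dTGR and 12.20, 13.53 and 14.47 in SD, without overlap, a difference of 1.84 ± 0.20 (adjusted p = 1.57e-07).

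Ankrd23, a titin-associated ankyrin repeat protein of the sarcomere, had 14.21, 14.78 and 15.29 in treated dTGR and 10.996, 11.64 and 12.38 in SD. No treated array came near an SD array, and the difference of 3.13 ± 0.15 had the adjusted p = 4.1e-14. Acta1, the skeletal alpha-actin of the fetal heart, had 16.39, 16.60 and 16.76 in treated dTGR and 14.57, 15.22 and 15.93 in SD, again without overlap, and differed by 1.33 ± 0.12 (adjusted p = 8.33e-09). The related stretch genes split by size. Ankrd1, which stood near the top of the intensity scale, differed by 0.41 ± 0.04 (adjusted p = 5.87e-08), and Ankrd2 by 1.15 ± 0.25 (adjusted p = 0.00121) with an average of 8.11 in treated dTGR, 10.35 in vehicle dTGR and 6.96 in SD. The vehicle arrays of Ankrd2 were widely spread, from 7.25 to 12.44. The myosin heavy chains did not pass the test. Myh7, the slow isoform, differed by 0.43 ± 0.23 (adjusted p = 0.218), and Myh6, the fast isoform of the adult rat ventricle, by -0.15 ± 0.07 (adjusted p = 0.157).

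The receptors of the natriuretic peptides did not move together. Npr3, the clearance receptor, differed by 0.85 ± 0.19 (limma, adjusted p = 0.0018), Npr2, the receptor of the C-type peptide, by -0.35 ± 0.06 (adjusted p = 9.07e-05), and Npr1, the receptor that answers the atrial and B-type peptides, by -0.09 ± 0.11 (adjusted p = 0.629).

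Sarcomere and Z disc genes were called higher more often than lower, 11 and 5 of 25 measured. Mybpc2, the fast skeletal myosin-binding protein, had 8.66, 8.99 and 9.62 in treated dTGR and 6.08, 7.11 and 8.03 in SD, without overlap, a difference of 1.99 ± 0.18 (limma, adjusted p = 8.57e-09). Myot, a Z disc protein, differed by 1.47 ± 0.15 (adjusted p = 3.61e-08) and averaged 9.15 in treated dTGR, 10.53 in vehicle dTGR and 7.68 in SD. Its vehicle arrays ran from 8.86 to 11.95. The cardiac troponin subunits went opposite ways by small amounts: Tnnc1, the calcium-binding subunit, by 0.25 ± 0.05 (adjusted p = 0.000442) and Tnni3, the inhibitory subunit, by -0.25 ± 0.03 (adjusted p = 3.82e-06).

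The 250 bases before the start of 3 of these stretch and matrix genes are shown because they moved strongly and hold the letters CATTCC or their complement GGAATG, known as the core of the sites that TEAD factors recognise and marked in capitals. They are RefSeq sequences of the build GRCr8, 5′ to 3′ in the direction of the gene, at chr9:46274511-46274760 on the minus strand for Ankrd23, chr19:68784195-68784444 on the minus strand for Acta1 and chr1:22624615-22624864 on the minus strand for Ccn2.
Ankrd23: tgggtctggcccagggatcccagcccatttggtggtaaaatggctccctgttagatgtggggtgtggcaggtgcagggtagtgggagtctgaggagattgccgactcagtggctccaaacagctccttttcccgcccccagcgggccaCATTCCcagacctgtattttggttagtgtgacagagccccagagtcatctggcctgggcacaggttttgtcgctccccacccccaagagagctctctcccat
Acta1: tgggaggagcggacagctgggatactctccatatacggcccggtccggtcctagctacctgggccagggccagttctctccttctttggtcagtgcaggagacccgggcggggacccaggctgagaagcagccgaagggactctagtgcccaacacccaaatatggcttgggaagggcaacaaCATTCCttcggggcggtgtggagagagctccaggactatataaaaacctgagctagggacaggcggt
Ccn2: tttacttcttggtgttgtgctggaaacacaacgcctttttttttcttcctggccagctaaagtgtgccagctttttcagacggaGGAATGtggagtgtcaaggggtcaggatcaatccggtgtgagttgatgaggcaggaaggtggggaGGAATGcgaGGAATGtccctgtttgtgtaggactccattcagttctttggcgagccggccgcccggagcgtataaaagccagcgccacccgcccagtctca
Read on both strands, the motif was present in 3 of the 7 promoters on file for fetal program genes called higher (42.9%), in 6 of 18 for all measured genes of that list (33.3%), and in 10.4% of the 9353 promoters of all measured genes. For matrix genes called higher it was in 5 of 19 (26.3%), and for all measured matrix genes in 7 of 28 (25.0%). None of the marked letters overlaps the other motifs searched, which are given with the interferon and cell cycle genes. A match is a run of letters and not a shown binding site.

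Matrix genes were higher in treated dTGR, 28 of 44 measured members against 2 lower, with a median difference of 0.39. Thbs4, a matrix glycoprotein of loaded hearts and tendons, had 8.91, 11.17 and 13.05 in treated dTGR as lowest, median and highest, and 6.95, 7.38 and 9.26 in SD. The groups overlapped, and the difference was 3.35 ± 0.48 (limma, adjusted p = 8.72e-06). Ccn2, the connective tissue growth factor, had 11.69, 12.22 and 13.12 in treated dTGR and 9.25, 9.66 and 10.41 in SD, and differed by 2.57 ± 0.16 (adjusted p = 2.13e-11). Its arrays did not overlap between the groups, while vehicle dTGR ran from 10.37 to 13.75.

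Cilp, an extracellular protein of cartilage and of cardiac fibroblasts, had 9.98, 10.69 and 11.76 in treated dTGR and 7.74, 8.45 and 9.21 in SD, a difference of 2.29 ± 0.20 without overlap (limma, adjusted p = 4.86e-09). Postn, periostin of activated fibroblasts, had 9.43, 10.54 and 13.60 in treated dTGR and 9.0, 9.34 and 9.86 in SD, a difference of 1.58 ± 0.40 with overlap (adjusted p = 0.00472). Ltbp2, a microfibril protein that is related to the binding proteins of latent TGF beta, differed by 1.80 ± 0.32 (adjusted p = 0.000131). The fibrillar collagens differed less than these: Col1a1 by 0.43 ± 0.14 (adjusted p = 0.0298) and Col3a1 by 0.36 ± 0.12 (adjusted p = 0.0375). Timp1, an inhibitor of metalloproteinases, differed by 0.82 ± 0.18 (adjusted p = 0.00119) and averaged 11.22 in treated dTGR, 12.17 in vehicle dTGR and 10.39 in SD. Its vehicle arrays ran from 10.88 to 13.70.

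The matrix level varied between treated hearts. Among treated arrays, replicate 3 was the highest for 20 of the 28 matrix genes called higher, and replicates 8 and 9 for 3 each. For Postn those with the highest values were replicates 3 and 8, at 13.60 and 13.02, and the next was replicate 1 at 11.74. Without replicates 3 and 8, a setting chosen after seeing the data, 25 matrix genes were called higher and 1 lower. Postn then differed by 1.09 (limma, adjusted p = 0.00153) and Col1a1 by 0.27 (adjusted p = 0.0153), while Col3a1 was no longer called at 0.23 (adjusted p = 0.0781). Ccn5, a relative of Ccn2, differed by 1.13 ± 0.32 over all treated arrays (adjusted p = 0.0117) and by 0.77 without those replicates (adjusted p = 0.0138).

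**Figure D2:**
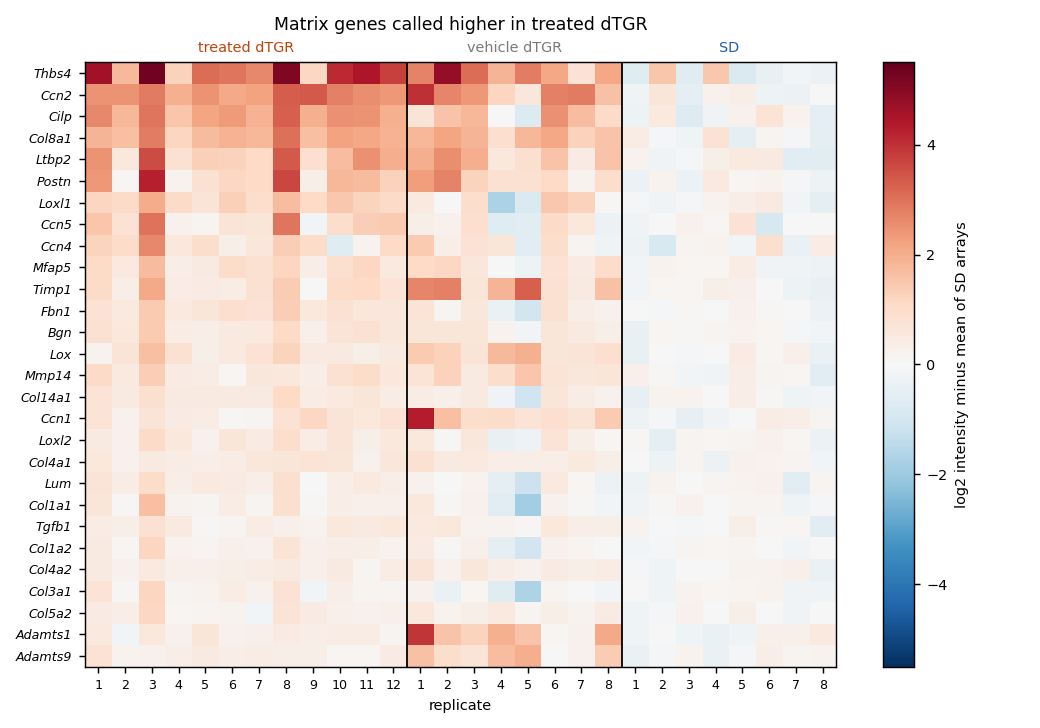
Log2 intensity minus the mean of the SD arrays for the 28 matrix genes called higher in treated dTGR, with 1 column per array in the order treated dTGR, vehicle dTGR and SD, and genes sorted by their mean difference. Red is above the SD mean; the columns of treated replicates 3 and 8 are the darkest among treated dTGR for Postn, Ltbp2, Thbs4 and Ccn5.

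Fibroblast markers, which share members such as Col1a1 and Mfap5 with the matrix list, were also higher. Of 16 measured, 11 were called higher and 0 lower, with a median difference of 0.41, and their mean level per array ran from 11.7 to 12.5 in treated dTGR and from 11.4 to 11.8 in SD. The share of the matrix difference that goes with the number of fibroblasts was not tested. Pi16, a peptidase inhibitor of adventitial fibroblasts, differed by 1.22 ± 0.17 (limma, adjusted p = 3.82e-06), Mfap5, a microfibril protein, by 0.84 ± 0.14 (adjusted p = 5.39e-05), and Cd248, endosialin, by 0.82 ± 0.16 (adjusted p = 0.000309). Of 10 markers of smooth muscle and pericytes, 6 were higher and 0 lower. Cspg4, the pericyte proteoglycan NG2, had 11.07, 11.33 and 11.56 in treated dTGR and 10.27, 10.61 and 10.71 in SD, without overlap, and differed by 0.80 ± 0.07 (adjusted p = 2.1e-09).

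Growth factor genes were more often higher than lower, 18 and 5 of 51 measured. Tgfb1, the cytokine that drives matrix synthesis, differed by 0.40 ± 0.10 (limma, adjusted p = 0.00427). Gdf15, a stress-induced member of the TGF beta superfamily, differed by 1.38 ± 0.29 (adjusted p = 0.000751), Fstl3, an activin antagonist, by 1.19 ± 0.12 (adjusted p = 3.35e-08), and Hbegf, an EGF receptor ligand, by 1.13 ± 0.13 (adjusted p = 3.6e-07). The 4 genes lay above the SD mean on all 12 treated arrays. Angpt1, the ligand of the endothelial receptor Tek, was lower: it had 9.07, 9.55 and 10.53 in treated dTGR and 10.71, 11.25 and 12.10 in SD, and differed by -1.77 ± 0.16 without overlap (adjusted p = 8.69e-09).

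Genes of the drug's own pathway and of the rat renin-angiotensin system moved by small amounts. Of 25 measured genes of nitric oxide and cyclic GMP signalling, 5 were called higher and 2 lower, with a median difference of 0.08. Gucy1b1, the haem-binding beta subunit of soluble guanylate cyclase, had 10.06, 10.20 and 10.44 in treated dTGR and 9.35, 9.88 and 10.05 in SD. The lowest treated array lay just above the highest SD array, and the difference was 0.45 ± 0.08 (limma, adjusted p = 0.000195). The alpha subunit Gucy1a1 differed by 0.05 ± 0.07 (adjusted p = 0.726). Pde5a, the phosphodiesterase that breaks down cyclic GMP, differed by 0.36 ± 0.08 (adjusted p = 0.00232), Nos3, the endothelial nitric oxide synthase, by 0.26 ± 0.06 (adjusted p = 0.0038), and Pde3a, a cyclic AMP phosphodiesterase that cyclic GMP inhibits, by -0.20 ± 0.05 (adjusted p = 0.00578).

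Of 10 measured genes of the renin-angiotensin-aldosterone list, 1 was higher and 0 were lower. The call was Atp6ap2, the prorenin receptor, at 0.22 ± 0.06 (limma, adjusted p = 0.005). Agt, rat angiotensinogen, differed by 0.10 ± 0.19 (adjusted p = 0.793) and Agtr1a, the main angiotensin receptor of rat heart and vessels, by -0.16 ± 0.18 (adjusted p = 0.61). Ace, the converting enzyme, had 9.68, 10.03 and 10.54 in treated dTGR and 9.43, 9.83 and 10.35 in SD, and its difference of 0.29 ± 0.12 did not pass the test (adjusted p = 0.0909). In vehicle dTGR Ace averaged 11.11, with arrays from 10.03 to 12.18.

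Ion channel and receptor genes were mostly lower where they differed. Of 40 measured genes of calcium handling and ion channels, 15 were called lower and 5 higher, with a median difference of -0.13. Kcna2, a delayed rectifier potassium channel, had 8.65, 9.53 and 9.92 in treated dTGR as lowest, median and highest, and 10.81, 11.42 and 12.22 in SD, a difference of -1.998 ± 0.18 without overlap (limma, adjusted p = 7.38e-09). Cacna1h, a T-type calcium channel, had 7.99, 8.65 and 9.21 in treated dTGR and 9.66, 10.06 and 10.52 in SD, a difference of -1.49 ± 0.13 without overlap (adjusted p = 8.33e-09). Kcnd2, a pore subunit of the transient outward current of rat ventricle, differed by -0.77 ± 0.09 without overlap (adjusted p = 3.42e-07).

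For Kcnd2 the treated mean of 10.76 stood between averages of 9.75 in vehicle dTGR and 11.53 in SD. The vehicle arrays ran from 8.72 to 10.98, and the highest of them lay above that treated mean. Scn4b, another sodium channel subunit, differed by -0.61 ± 0.21 (limma, adjusted p = 0.0424), a call lost in 19 of 33 alternative settings. Atp2a2, the calcium pump of the sarcoplasmic reticulum, had 15.76, 15.98 and 16.05 in treated dTGR and 16.08, 16.17 and 16.25 in SD, so that even this difference of -0.22 ± 0.04 left no overlap (adjusted p = 0.000113). Its inhibitor Pln, phospholamban, differed by -0.11 ± 0.04 (adjusted p = 0.0358), a call lost in 10 of 33 settings.

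Of 26 measured vasoactive and hormone receptor genes, 7 were called lower and 3 higher. Gcgr, the glucagon receptor, had 8.06, 8.81 and 9.30 in treated dTGR and 10.55, 10.98 and 11.20 in SD. All treated arrays lay more than a log2 unit below every SD array, and the difference was -2.17 ± 0.13 (limma, adjusted p = 1.1e-11). Vehicle dTGR averaged 7.72 for this receptor, with arrays from 6.58 to 8.62. Adra1d, an alpha-1 adrenergic receptor, differed by -0.76 ± 0.19 (adjusted p = 0.00484), Rgs2, an inhibitor of Gq signalling, by -0.74 ± 0.11 (adjusted p = 1.53e-05), and Aplnr, the apelin receptor, by 0.41 ± 0.10 (adjusted p = 0.00298). Rxfp1, the relaxin receptor, averaged 9.10 in treated dTGR, 7.87 in vehicle dTGR and 9.18 in SD, and its difference from SD was -0.08 ± 0.16 (adjusted p = 0.776). The vehicle arrays of Rxfp1 ran from 6.89 to 9.06.

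**Figure D3:**
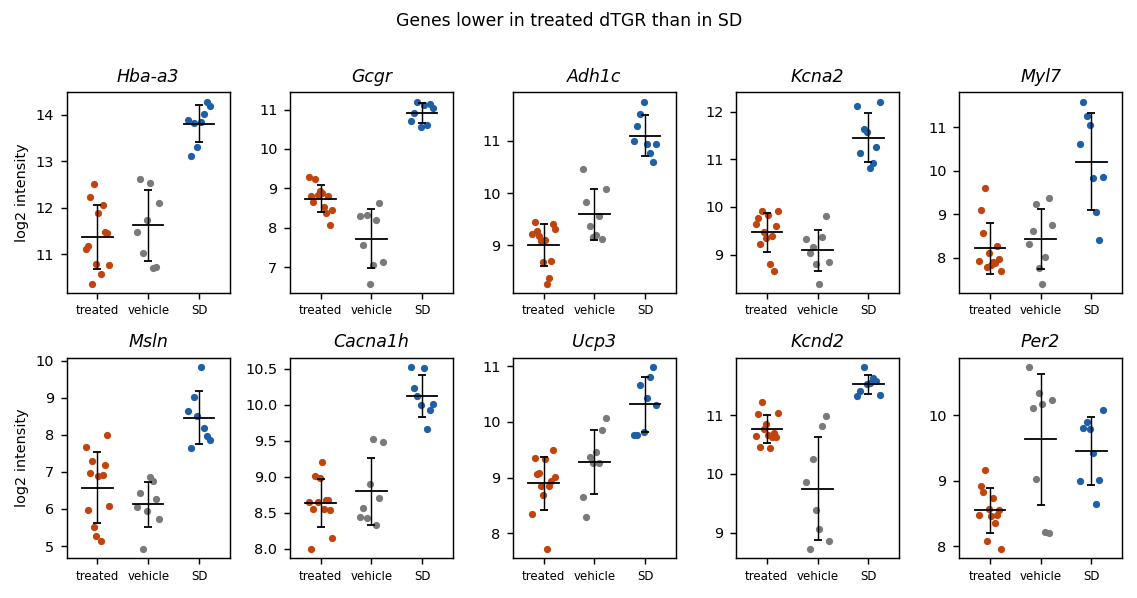
Log2 intensity of 10 genes called lower in treated dTGR than in SD, with 1 point per array (12 treated dTGR, 8 vehicle dTGR, 8 SD), a line at the mean and bars of 1 standard deviation. Treated and SD arrays overlap for Myl7, Msln and Per2 and for no other gene shown.

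Fatty acid genes were lower across the pathway. Of 49 measured members, 33 were called lower and 1 higher, against 9.50% and 11.8% of all genes, with a median difference of -0.28. Ucp3, a mitochondrial carrier of heart and skeletal muscle, had 7.72, 8.97 and 9.49 in treated dTGR and 9.76, 10.36 and 10.98 in SD, a difference of -1.42 ± 0.19 without overlap (limma, adjusted p = 3.35e-06). Dgat2, which makes triglyceride, differed by -0.78 ± 0.14 (adjusted p = 0.000203), and Acaa1a, a thiolase of peroxisomal oxidation, by -0.72 ± 0.09 without overlap (adjusted p = 7.88e-07). Pdk4, the kinase that shuts pyruvate dehydrogenase, averaged 12.98 in treated dTGR, 14.48 in vehicle dTGR and 13.38 in SD, and its difference of -0.40 ± 0.15 from SD did not pass (adjusted p = 0.0638). Angptl4, an inhibitor of lipoprotein lipase, averaged 6.18 in treated dTGR, 8.78 in vehicle dTGR and 6.54 in SD, a difference from SD of -0.36 ± 0.36 (adjusted p = 0.556). Vehicle arrays ran from 12.86 to 15.43 for Pdk4 and from 6.52 to 10.62 for Angptl4.

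Pyruvate, citric acid cycle and branched-chain amino acid genes had 14 of 31 measured members lower and 0 higher. Bckdha, a subunit of branched-chain ketoacid dehydrogenase, had 10.22, 10.57 and 10.76 in treated dTGR and 11.23, 11.48 and 11.93 in SD, a difference of -0.95 ± 0.08 (limma, adjusted p = 3.51e-09). Bcat2, the mitochondrial aminotransferase of the step before it, differed by -0.68 ± 0.07 (adjusted p = 2.17e-08), and Pc, pyruvate carboxylase, by -0.69 ± 0.07 (adjusted p = 1.5e-08). The groups did not overlap for any of the 3 genes. Of 58 oxidative phosphorylation genes, 12 were lower and 0 higher, against 9.50% and 11.8% of all genes, with a median difference of -0.11. The largest of them was Ndufb3, a subunit of complex I, at -0.30 ± 0.07 (adjusted p = 0.00212).

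Glucose genes were mixed, with 4 of 19 measured members higher and 6 lower. Slc16a3, a lactate exporter, differed by 0.80 ± 0.23 (limma, adjusted p = 0.0136), Slc2a1, the basal glucose transporter, by 0.44 ± 0.08 (adjusted p = 0.000149), and Pgam2, the muscle phosphoglycerate mutase, by -0.42 ± 0.06 (adjusted p = 2.01e-05). Adh1c, an alcohol dehydrogenase that also acts on retinol, belonged to none of these lists and had 8.26, 9.14 and 9.44 in treated dTGR and 10.60, 10.97 and 11.76 in SD, a difference of -2.10 ± 0.16 without overlap (adjusted p = 3.61e-10). Hpd, an enzyme of tyrosine breakdown, differed by -1.63 ± 0.19 without overlap (adjusted p = 3.87e-07).

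Inflammatory genes were higher more often than lower, while listed interferon and immunoproteasome genes were lower more often than higher. Of 50 measured cytokine and adhesion genes, 17 were called higher and 4 lower. Tnfrsf11b, the decoy receptor osteoprotegerin, differed by 1.54 ± 0.18 (limma, adjusted p = 5.58e-07), Tnfrsf12a, the TWEAK receptor, by 1.39 ± 0.11 (adjusted p = 9.55e-10), and Ptgs2, the inducible cyclooxygenase, by 1.12 ± 0.20 (adjusted p = 0.000161). For the receptors the groups did not overlap. Of 18 acute phase and lectin genes, 7 were higher and 1 lower. Lcn2, lipocalin 2, had 10.49, 10.89 and 11.10 in treated dTGR and 7.33, 9.36 and 10.65 in SD, a difference of 1.71 ± 0.28 with overlap (adjusted p = 5.39e-05).

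Markers of macrophages were higher where they differed, 10 of 25 measured against 0 lower, and their mean level per array ran from 9.25 to 10.1 in treated dTGR and from 9.08 to 9.61 in SD. Gpnmb, a glycoprotein of lipid-laden and phagocytic macrophages, had 8.96, 9.49 and 11.02 in treated dTGR and 7.81, 8.43 and 8.92 in SD, without overlap, a difference of 1.20 ± 0.21 (limma, adjusted p = 0.000116). Trem2, a lipid receptor of the same cells, differed by 0.81 ± 0.16 (adjusted p = 0.000342), and C1qb, a chain of complement C1q, by 0.48 ± 0.12 (adjusted p = 0.00487). Of 25 complement and coagulation genes, 8 were higher and 1 lower, and the largest of them was Serpine2, an inhibitor of thrombin, at 1.00 ± 0.10 (adjusted p = 3.19e-08).

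Lymphocyte markers were lower where they differed, with the exception of 1 marker: 9 of 23 measured were lower and 1 higher. Their mean level per array ran from 7.10 to 7.51 in treated dTGR and from 7.31 to 7.79 in SD. Klrd1, the CD94 receptor of natural killer cells, had 6.30, 7.44 and 7.85 in treated dTGR and 7.50, 8.46 and 8.92 in SD, a difference of -1.05 ± 0.20 with overlap (limma, adjusted p = 0.000368). Klrb1a, another receptor of these cells, differed by -0.74 ± 0.18 (adjusted p = 0.00284), and Cd3g, a chain of the T cell receptor complex, by -0.73 ± 0.18 (adjusted p = 0.00309).

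Of 44 measured interferon and immunoproteasome genes, 17 were called lower and 3 higher, with a median difference of -0.22. Irf7, the transcription factor that amplifies type I interferon, had 8.63, 9.26 and 9.78 in treated dTGR and 9.56, 10.02 and 11.49 in SD. The highest treated arrays reached the lowest SD arrays, and the difference was -1.08 ± 0.22 (limma, adjusted p = 0.000629). Psmb9, an immunoproteasome subunit, differed by -0.73 ± 0.09 (adjusted p = 1.42e-06). Gbp1, an interferon-induced guanylate-binding protein, went the other way, by 0.87 ± 0.19 (adjusted p = 0.00101). Its relative Gbp6, which is not in this list and is described with the histocompatibility genes, was at least 7.48-fold higher. The count of lower genes was 10 without SD replicate 1, and also 10 where all 28 arrays were fitted in 1 model. Interferon genes and lymphocyte markers were both more often lower than higher. Whether they varied together between arrays, and the part of the lymphocytes in the lower interferon genes, was not tested.

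The promoters of Irf7 and of Ifit3, an interferon-induced antiviral gene picked after its value was seen, are shown because they hold GAAA, any 2 bases (NN) and GAAA again, or the complement, the known element through which interferon-activated factors act, in capitals. They are the 250 bases before the start, from RefSeq on GRCr8, at chr1:205800024-205800273 on the minus strand for Irf7 and chr1:241527076-241527325 on the plus strand for Ifit3.
Irf7: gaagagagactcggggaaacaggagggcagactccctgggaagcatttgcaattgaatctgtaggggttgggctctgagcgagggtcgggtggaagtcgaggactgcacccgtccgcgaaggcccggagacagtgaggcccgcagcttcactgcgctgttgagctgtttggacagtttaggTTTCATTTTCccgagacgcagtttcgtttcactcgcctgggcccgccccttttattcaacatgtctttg
Ifit3: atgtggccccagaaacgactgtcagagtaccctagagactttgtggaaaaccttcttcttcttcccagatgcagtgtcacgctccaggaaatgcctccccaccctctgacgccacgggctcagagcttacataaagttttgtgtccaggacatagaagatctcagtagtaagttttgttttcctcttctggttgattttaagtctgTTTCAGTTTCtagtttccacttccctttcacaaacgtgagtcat
The motif, read on both strands, was in 9 of the 14 promoters on file for interferon genes called lower (64.3%), in 19 of 34 for all measured genes of the list (55.9%), and in 2.88% of all 9353 promoters.

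Histocompatibility genes went both ways, with 6 of 23 measured higher and 6 lower. RT1-Db1, a class II beta chain, had 10.23, 10.83 and 11.89 in treated dTGR and 5.53, 7.33 and 9.85 in SD. No array crossed over, the SD arrays covered a wide range, and the difference was 3.55 ± 0.37 (limma, adjusted p = 6.38e-08). RT1-Bb, the beta chain of the other class II molecule, differed by -1.32 ± 0.19 (adjusted p = 1.09e-05). RT1-CE10, a class I gene, had a mean of 7.23 in treated dTGR and of 5.21 in SD, which lies under the filter level of 5.65 for low probes. With every array under that level set to it before averaging, it was at least 2.88-fold higher (adjusted p of the fit 6.44e-07). Gbp6, a guanylate-binding protein that interferon induces, had 8.14, 8.75 and 9.47 in treated dTGR and 4.08, 5.32 and 6.72 in SD and was by the same reckoning at least 7.48-fold higher (adjusted p of the fit 7.79e-10).

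Cell cycle genes were higher, 21 of 35 measured against 0 lower, with a median difference of 0.56. Rrm2, the subunit of ribonucleotide reductase made in S phase, had 8.16, 8.45 and 9.52 in treated dTGR as lowest, median and highest, and 5.64, 7.39 and 7.94 in SD. Its groups did not overlap, and the difference was 1.48 ± 0.25 (limma, adjusted p = 5.9e-05). Kif20a, a kinesin of cell division, had 6.85, 7.32 and 7.89 in treated dTGR and 5.12, 6.22 and 6.62 in SD, a difference of 1.29 ± 0.21 without overlap (adjusted p = 4.07e-05). Cdk1, the kinase that starts mitosis, differed by 1.28 ± 0.26 with overlap (adjusted p = 0.000631) and averaged 7.56 in treated dTGR, 7.04 in vehicle dTGR and 6.29 in SD. Kif20a and Cdk1 averaged 6.05 and 6.29 in SD, near the filter level of 5.65. The count of higher genes was 17 to 23 over all alternatives, and 19 without treated replicates 3 and 8.

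The promoters of Cdk1 and Kif20a are shown because they hold several copies of CCAAT or its complement ATTGG, known as a box shared by many cell cycle genes, in capitals. They are the 250 bases before the start, from RefSeq on GRCr8, at chr20:19265043-19265292 on the plus strand for Cdk1 and chr18:26504172-26504421 on the plus strand for Kif20a.
Cdk1: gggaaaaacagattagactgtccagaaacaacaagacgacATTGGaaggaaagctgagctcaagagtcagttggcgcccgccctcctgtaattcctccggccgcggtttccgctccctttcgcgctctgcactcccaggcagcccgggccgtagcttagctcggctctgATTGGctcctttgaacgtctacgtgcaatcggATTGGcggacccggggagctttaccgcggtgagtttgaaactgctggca
Kif20a: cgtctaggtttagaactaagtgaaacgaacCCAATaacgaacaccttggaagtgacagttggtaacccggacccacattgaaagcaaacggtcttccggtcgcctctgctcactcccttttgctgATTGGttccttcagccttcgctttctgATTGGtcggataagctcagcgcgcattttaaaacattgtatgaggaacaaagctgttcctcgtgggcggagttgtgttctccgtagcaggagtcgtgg
Read on both strands, CCAAT was in 11 of the 14 promoters on file for cell cycle genes called higher (78.6%), in 18 of 27 for all measured cell cycle genes (66.7%), and in 35.2% of all 9353 promoters.

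Immediate early and cardiac transcription factor genes had 16 of 37 measured members higher and 3 lower. With all 28 arrays in 1 model these counts were 5 and 1. Atf3, a stress-induced factor, had 8.85, 9.11 and 9.61 in treated dTGR and 7.99, 8.27 and 8.35 in SD, without overlap, and differed by 0.97 ± 0.10 (limma, adjusted p = 6.39e-08). Egr1 differed by 0.81 ± 0.11 (adjusted p = 5.76e-06) and Fos by 0.61 ± 0.21 (adjusted p = 0.0355), a call that 9 of 33 settings lost. These are genes switched on within minutes of a stimulus. Vehicle dTGR averaged above treated dTGR for each: Egr1 averaged 10.94 in treated dTGR, 11.99 in vehicle dTGR and 10.13 in SD, and Fos 7.26 in treated dTGR, 9.44 in vehicle dTGR and 6.65 in SD. The vehicle arrays were widely spread, from 9.24 to 14.64 for Atf3, from 10.75 to 15.20 for Egr1 and from 7.07 to 14.18 for Fos. The lowest of them lay within the range of the treated arrays for each gene.

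The list of oxidative stress, haem oxygenase and metallothionein genes, which is not limited to defence against oxidants, had 11 of 39 measured members called lower and 5 higher. Ncf1, a cytosolic subunit of the phagocyte NADPH oxidase, had 10.98, 11.19 and 11.41 in treated dTGR and 11.98, 12.07 and 12.34 in SD, a difference of -0.95 ± 0.06 without overlap (limma, adjusted p = 4.84e-11). Akr1b10, an aldo-keto reductase, differed by -0.87 ± 0.06 (adjusted p = 2.13e-11), and Cbr1, carbonyl reductase, by -0.84 ± 0.09 (adjusted p = 5.99e-08), each without overlap. Hmox1, haem oxygenase, averaged 9.05 in treated dTGR, 10.92 in vehicle dTGR and 9.29 in SD, and its difference from SD was -0.23 ± 0.10 (adjusted p = 0.108). Mt2A, a metallothionein, differed by 0.80 ± 0.24 (adjusted p = 0.0153) and averaged 7.50 in treated dTGR, 10.58 in vehicle dTGR and 6.70 in SD. Vehicle arrays were widely spread, from 8.78 to 12.11 for Hmox1 and from 6.66 to 13.38 for Mt2A. For both genes vehicle replicates 6 and 7 lay within the range of the treated arrays.

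Of 11 measured clock genes, 2 were higher and 3 lower. Bmal1, the activating factor of the clock, differed by 0.88 ± 0.15 (limma, adjusted p = 0.000114). Its targets Per2, Per3 and Dbp differed by -0.91 ± 0.17 (adjusted p = 0.000246), by -0.90 ± 0.17 (adjusted p = 0.000326) and by -0.92 ± 0.17 (adjusted p = 0.000242). The activating gene and its targets lay on opposite sides of SD. The labels used here give no hour at which the hearts were taken, and a difference in hour between groups was not tested. Ddit4l, an inhibitor of mTOR signalling, had 8.92, 9.39 and 9.81 in treated dTGR and 9.89, 10.18 and 10.42 in SD, a difference of -0.75 ± 0.10 without overlap (adjusted p = 5.62e-06). Its average in vehicle dTGR was 7.97, with arrays from 6.14 to 9.76.

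For some genes treated dTGR differed from SD and, in the same direction, also from vehicle dTGR. Treated and vehicle dTGR were compared in 1 limma model of all 28 arrays, which shares the treated arrays with the main comparison, and of the genes called in both and at least 1.5-fold from SD, the 6 in each direction whose smaller difference was largest are given here. Loxl1, a lysyl oxidase that crosslinks elastin, had 11.21, 11.62 and 12.50 in treated dTGR and 9.95, 10.39 and 10.99 in SD, a difference of 1.24 ± 0.14 without overlap, and averaged 11.72 in treated dTGR, 10.71 in vehicle dTGR and 10.48 in SD. Tfrc, the transferrin receptor that brings iron into cells, had 12.05, 12.36 and 12.64 in treated dTGR and 11.18, 11.45 and 11.93 in SD, a difference of 0.88 ± 0.09 without overlap, and averaged 12.38 in treated dTGR, 11.43 in vehicle dTGR and 11.50 in SD. Vehicle arrays were widely spread, from 8.74 to 11.96 for Loxl1 and from 9.92 to 12.59 for Tfrc, beyond the SD range at both ends.

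Adamts8, a metalloproteinase of the ADAMTS family, Cdh20, a cadherin, and Spon2, a matrix protein, were, beside Cilp, the others of these 6 on the higher side. Adamts8 averaged 8.45 in treated dTGR, 7.59 in vehicle dTGR and 6.52 in SD. Cdh20 averaged 10.34 in treated dTGR, 9.44 in vehicle dTGR and 8.72 in SD, and Spon2 averaged 9.05 in treated dTGR, 8.07 in vehicle dTGR and 8.18 in SD. Vehicle arrays ran from 6.67 to 8.50 for Adamts8, from 8.57 to 10.39 for Cdh20 and from 6.98 to 9.72 for Spon2. The highest of them lay within the range of the treated arrays for Adamts8 and Cdh20, and above it for Spon2. Treated and SD arrays of Spon2 overlapped. The 6 on the lower side were Eya2, Oas1k, Sult1a1, Fmo2, Per2 and Prr22. Fmo2, a flavin monooxygenase, averaged 10.70 in treated dTGR, 12.65 in vehicle dTGR and 11.68 in SD, and Sult1a1, a phenol sulphotransferase, averaged 10.17 in treated dTGR, 12.30 in vehicle dTGR and 11.33 in SD. For these enzymes vehicle dTGR averaged above SD and treated dTGR below it, but the vehicle arrays were widely spread. They ran from 10.46 to 14.01 for Fmo2 and from 9.99 to 13.64 for Sult1a1, so that the lowest of them lay below the SD average. Eya2, a transcriptional cofactor of muscle, averaged 7.59 in treated dTGR, 8.81 in vehicle dTGR and 8.80 in SD, and its treated and SD arrays did not overlap. Its vehicle arrays ran from 6.44 to 9.83. Oas1k, an oligoadenylate synthetase gene, averaged 6.85 in treated dTGR, 8.23 in vehicle dTGR, with arrays from 6.72 to 8.95, and 8.20 in SD. Prr22, a proline-rich protein, averaged 5.80 in treated dTGR, 6.75 in vehicle dTGR and 6.79 in SD. The treated average was near the filter level of 5.65, and the treated arrays ran from 4.49 to 6.84. Those of vehicle dTGR ran from 5.72 to 7.73.

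Markers of tissues that a ventricular biopsy can hold beside muscle differed between the groups. The labelled tissue showed its muscle markers at high levels, with a mean cardiomyocyte marker level per array of 15.7 to 15.8 in treated dTGR and 15.3 to 15.7 in SD. These means include Nppa, at a difference of 3.74. The median difference of the list was -0.03, with 2 of 11 measured members higher and 3 lower. Of 10 atrial markers, 5 were lower and 2 higher, and Nppa was among the higher ones. Myl7, the atrial light chain of myosin, had 7.70, 7.94 and 9.59 in treated dTGR and 8.41, 10.24 and 11.59 in SD, a difference of -1.99 ± 0.32 with overlap (limma, adjusted p = 3.94e-05). Of 11 mesothelial and epicardial markers, 5 were lower and 0 higher, and their mean level per array ran from 6.69 to 7.69 in treated dTGR and from 7.30 to 8.35 in SD. Msln, mesothelin of the heart's outer lining, had 5.15, 6.90 and 8.00 in treated dTGR and 7.64, 8.35 and 9.83 in SD, a difference of -1.89 ± 0.34 with overlap (adjusted p = 0.000153). Upk3b, a uroplakin, and Lrrn4, both known mesothelial markers, differed by -1.89 ± 0.33 (adjusted p = 0.000115) and by -1.74 ± 0.36 (adjusted p = 0.000803). For Msln, Upk3b and Lrrn4 some treated arrays lay under the filter level of 5.65. The lowest was at 4.74 for Upk3b and at 4.55 for Lrrn4.

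Of 11 erythroid markers, 4 were lower and 0 higher, and their mean level per array ran from 7.53 to 8.55 in treated dTGR and from 8.34 to 9.07 in SD. Hba-a3, an alpha globin, had 10.36, 11.31 and 12.50 in treated dTGR and 13.12, 13.87 and 14.28 in SD, the lowest difference of all genes tested at -2.45 ± 0.23, without overlap (limma, adjusted p = 9.94e-09). Hbb-b1, a beta globin, differed by -1.51 ± 0.23 with overlap (adjusted p = 2.02e-05). Of 15 endothelial markers, 6 were higher and 3 lower, the largest being Sox18, an endothelial transcription factor, at 0.44 ± 0.15 (adjusted p = 0.0293). Whether blood left in the tissue or the site of the biopsy bears on these genes was not tested.

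**Figure D4:**
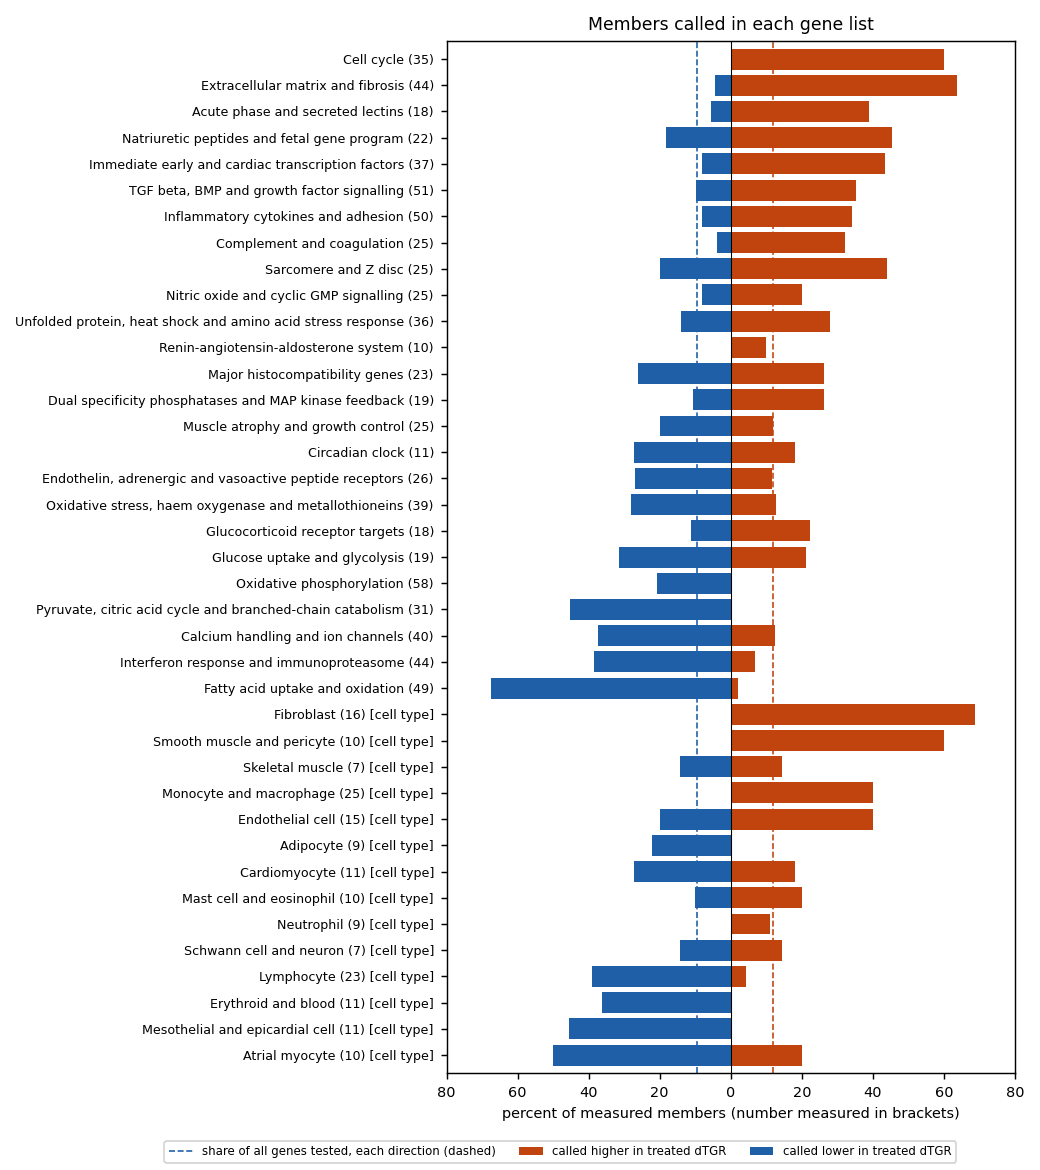
Percent of the measured members of each gene list that were called higher (right, red) or lower (left, blue) in treated dTGR than in SD, with the number measured in brackets, pathway lists above and cell type markers below. Dashed lines give the share of all 11496 genes, 11.8% higher and 9.50% lower; fatty acid genes reach farthest to the left, and fibroblast and matrix genes farthest to the right.

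The order of the genes in the RefSeq table of GRCr8 was used to see which called genes were neighbours. Of the genes called higher, 29.28% had at least 1 measured neighbour called higher, beside 21.88% of all 11460 measured genes with a position. Of the genes called lower, 20.92% had a neighbour called lower, beside 17.96% of all. The differences between these shares were not tested. There were 47 runs of at least 3 such neighbours. The longest held 6 genes, all lower: Zer1, Tbc1d13, Endog, Kyat1, Lrrc8a and Phyhd1. Gene families made up some runs of 4 higher genes, among them the protocadherins Pcdhb19 to Pcdhb22 and the class I genes RT1-CE15, RT1-CE12, RT1-CE10 and RT1-CE5. Gbp6 stood at the end of a run of 4 higher genes with Lrrc8d, Lrrc8c and Abcg3l2, and Bmal1 in another with Parva, Rras2 and Copb1. Lrrc8d lost its call in 13 of 33 alternative settings and Abcg3l2 in 6 of 32. Abcg3l2 and RT1-CE5 averaged 5.38 and 5.42 in SD, under the filter level of 5.65. Msln stood in a run of 4 lower genes with Ciao3, Haghl and Antkmt, of which Ciao3 lost its call in 17 of 33 settings and Haghl in 13. Dcdc1-ps1, labelled a pseudogene by its name, lay in a run of 3 lower genes with Immp1l and Arl14ep, and had 5.80, 6.34 and 6.82 in treated dTGR and 7.46, 8.12 and 8.71 in SD, a difference of -1.74 ± 0.18 without overlap (limma, adjusted p = 3.96e-08). Stretches of the genome that differ between the 2 rat lines and effects of the transgenes cannot be told apart here.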

How the data were processed

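Left ventricles of 28 rats were measured on 1 array each, per the labels, from 250 ng of total RNA. What the authors deposited is an intensity for each probe on each array, normalized with RMA per the submitters' processing notes and on a linear scale, and its log2 was taken here. No background measure was used. Precision is limited by how many arrays each group has. Of 36685 probes, 14824 had 1 gene symbol in the platform annotation, 829 several and 21032 none; 14670 of those with 1 symbol matched the RefSeq gene table and 0 symbols changed. Probes under the 30th percentile of mean log2 intensity over the 20 arrays (5.65, an intensity of 50.2) were left out, and the brightest probe of each symbol was kept (11692 probes, 11496 genes). A list member is measured where it passed this filter. The 12 treated dTGR and 8 SD arrays were fitted with limma 3.58.1 in R 4.3.3 (lmFit, eBayes with an intensity trend, two-sided, Benjamini-Hochberg). Where a group's mean lay under the filter level, arrays under it were set to it and the fold of the resulting means is given as at least.

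Genes were named by rule: the 12 highest and 12 lowest called genes, up to 3 called members of each of 39 gene lists, a fixed set of pathway genes, those also called against vehicle dTGR in the same direction (6 each way), the 6 with the widest treated spread, the 6 each way with the widest gap, and runs of at least 3 neighbours. The text names a part of them. The comparison, the rule and the lists were chosen with earlier results of these data known. Alternatives were the fit of all 28 arrays, other filters, probe choices, scalings and priors, array weights, 16 added before log2, and each array left out. On simulated data of 11496 genes, 69 of 100 genes changed by 0.6 (log2) and 99 of 100 changed by 1.5 were recovered, with 8 false calls. 0 pairs of arrays held identical values.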

Additional observations from a re-analysis of the deposited data

Results flagged for a closer look

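Arrays that stood apart from the other 7 of their group were looked for in the 147 named genes, in vehicle dTGR and in SD; the group of 12 treated dTGR was too large for the test. The gap to the nearest array was over 0.526 of the group's range in 16 of the 294 groups tested, and chance gives about 1 in 20.

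In vehicle dTGR, replicate 1 stood above the rest for Atf3 at 14.64, Egr1 at 15.20, Hbegf at 12.64 and Tnfrsf12a at 13.24. Replicate 5 stood above the rest for Lcn2 at 13.82, and below it for Npr3 at 8.09, Ankrd1 at 16.15 and Col3a1 at 11.29. Replicate 4 was lowest for Lrrc8d at 8.32, and replicate 7 highest for Pde3a at 12.20. These arrays are not part of the comparison of treated dTGR with SD.

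In SD, replicate 8 stood below the rest for Pi16 at 9.99, Tgfb1 at 9.94 and Adra1d at 8.09. Replicate 7 was lowest for RT1-CE15 at 5.51, replicate 6 for Fmo2 at 10.89 and replicate 5 for Prr22 at 5.70. Without its SD replicate 7, RT1-CE15 was no longer called.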

How the results depend on the processing

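Over 13 alternative settings, 2000 to 2487 genes were called, 1095 to 1370 higher and 905 to 1124 lower, with 358 to 418 at least 1.5-fold higher and 204 to 242 at least 1.5-fold lower; the fit of all 28 arrays gave the lowest count. With each array left out in turn, 2199 to 2450 genes were called, 1206 to 1351 higher and 990 to 1099 lower, with 367 to 436 and 212 to 239 at least 1.5-fold higher and lower. Of 187 called genes among the 198 that the rule named, 158 kept their call in each of the 33 settings that measured them. RT1-CE10, RT1-CE5 and Prr22, which are among the 158, were measured in 32 settings. Agt and Rxfp1, neither called, changed sign in 1 setting each: with single arrays left out, Agt ran from -0.0302 (without treated replicate 5) to 0.167 and Rxfp1 from -0.141 to 0.0349 (without SD replicate 4). Adamts8 differed by 1.93 with its brightest probe and by 1.07 with the mean of its probes. In the fit of all 28 arrays, inflammatory genes called higher numbered 10, acute phase genes 4 and stress response genes 5. Ankrd2, Atf3, Egr1, Mt2A, Aplnr and Adra1d each lost their call in that fit, and Col1a1 lost it in 7 settings and Col3a1 in 12. The setting without treated replicates 3 and 8 was chosen after seeing the data. No paired analysis was possible because the animal numbers in the labels differ between the groups and replicate numbers follow only the order of the samples. With no background measure, differences near the filter level of 5.65 are the least certain.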

Other observations

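Gene lists not described above held smaller or mixed differences between treated dTGR and SD, beside 21.3% of all genes called. Of 36 measured genes of the unfolded protein, heat shock and amino acid stress response, 10 were called higher and 5 lower, and the median difference was 0.07. Of 19 dual specificity phosphatases and feedback regulators of MAP kinases, 5 were higher and 2 lower. Dusp26, a phosphatase of muscle and brain, followed Dusp15 with a difference of 1.55 ± 0.17 (limma, adjusted p = 1.11e-07), while Dusp5, a nuclear phosphatase of ERK, differed by -0.65 ± 0.14 (adjusted p = 0.00138). Of 18 glucocorticoid receptor targets, 4 were higher and 2 lower, and of 25 genes of muscle atrophy and growth control, 3 were higher and 5 lower.

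Marker lists of further cell types were mixed or short, beside 21.3% of all genes called. The cardiomyocyte list had 2 of 11 measured members higher and 3 lower, skeletal muscle 1 higher and 1 lower of 7, Schwann cells and neurons 1 higher and 1 lower of 7, mast cells and eosinophils 2 higher and 1 lower of 10, neutrophils 1 higher and 0 lower of 9, and adipocytes 0 higher and 2 lower of 9. The neutrophil call was Lcn2, which other cells also make.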
